A study of Caenorhabditis elegans with 3 samples.

Results

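The 10 genes described here are ctc-1, ctc-2, ctc-3, ctb-1, atp-6, nduo-1, nduo-4, nduo-5, nduo-6 and ndfl-4, respiratory chain genes carried by the mitochondrial genome of Caenorhabditis elegans. They were taken by gene symbol from the 19194 genes of the deposited series table, and 10 of 10 were found. The mitochondrial genome has 12 protein genes in the annotation, and the other two, nduo-2 and nduo-3, serve here as a comparison. RNA came from strain N2, a wild-type laboratory strain, as a mixed-stage embryo library, an L1 larva library and a young adult library, with 1 library per stage and no replicates. L1 is the first larval stage after hatching, and the labels give whole worms as the tissue of the larval and adult samples. No source used here gives the culture conditions, feeding or number of animals pooled. Poly-A RNA was read as native strands on a nanopore, so a read stands for 1 RNA strand and not for a copy made by amplification.

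The respiratory chain passes electrons from NADH through complex I, ubiquinone, complex III and cytochrome c to oxygen at complex IV, and the proton gradient built on the way drives ATP synthesis at complex V. Most subunits are made from nuclear genes, but a few hydrophobic core subunits of complexes I, III, IV and V are encoded in mitochondrial DNA. Animal mitochondrial DNA is transcribed into long precursors that are cut into separate mRNAs, rRNAs and tRNAs, and the mRNAs receive poly-A tails, which lets poly-A selection capture them.

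All 36 annotated mitochondrial genes lie on the plus strand of chromosome MtDNA (Ensembl, WBcel235), and each member is annotated as a protein-coding gene with a single exon. In genome order, nduo-6 lies at 113 to 549 and ndfl-4 at 549 to 783, and these neighbours overlap by 1 base. After the small-subunit rRNA gene MTCE.7 come nduo-1 at 1763 to 2635 and atp-6 at 2634 to 3235, which overlap by 2 bases. After nduo-2 follow ctb-1 at 4504 to 5621, ctc-3 at 5678 to 6449, nduo-4 at 6506 to 7808, ctc-1 at 7827 to 9428 and ctc-2 at 9649 to 10348. The large-subunit rRNA gene MTCE.33 and nduo-3 separate ctc-2 from nduo-5, which lies at 11691 to 13272. No source used here gives the build behind the deposited tables, so these positions come from the annotation alone.

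The embryo, L1 and young adult libraries held 941679, 1017133 and 1611115 reads, as sums of rounded estimated counts. The 29 major sperm protein genes had 3, 609 and 11720 reads in the embryo, L1 and young adult libraries, and the 6 vitellogenin genes 0, 524 and 8918. Per 1000000 library reads, the young adult library held 7274 reads of the sperm genes and 5535 of the vitellogenin genes, against 599 and 515 in the L1 library. The part of these transcripts in the results was not tested. Both groups were lowest in the embryo library. The larval peptide and processing genes flp-9, flp-14 and egl-3 had 35, 2125 and 169 reads together. The embryonic genes pos-1, mex-5 and cyb-3 had 2768, 174 and 1747 reads, so the young adult library also held their transcripts. Intervals given below are 95% exact (Clopper-Pearson) intervals. They hold counting error alone and set library against library, and no difference here has a replicate check. In whole animals, fewer cells of a type and less RNA per cell cannot be told apart.

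Together the 10 genes took 3.32% of embryo reads (3.29 to 3.36), 3.14% of L1 reads (3.10 to 3.17) and 1.44% of young adult reads (1.43 to 1.46). In reads, the sums were 31275, 31918 and 23263. The young adult share was 2.17-fold lower than the L1 share (2.137 to 2.21) and 2.3-fold lower than the embryo share (2.26 to 2.34), and the ratio of L1 over embryo was 0.945 (0.930 to 0.960). With edgeR TMM factors, a scaling that sets most genes level between libraries, these ratios were 0.437, 0.756 and 1.73, so that the L1 over embryo ratio turned above 1. The 68 nuclear genes listed for the respiratory chain took 2.89%, 2.89% and 3.26% of the embryo, L1 and young adult libraries. With TMM factors their joint ratios were 1.07 for young adult over L1, 1.97 for young adult over embryo and 1.83 for L1 over embryo.

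**Figure D1:**
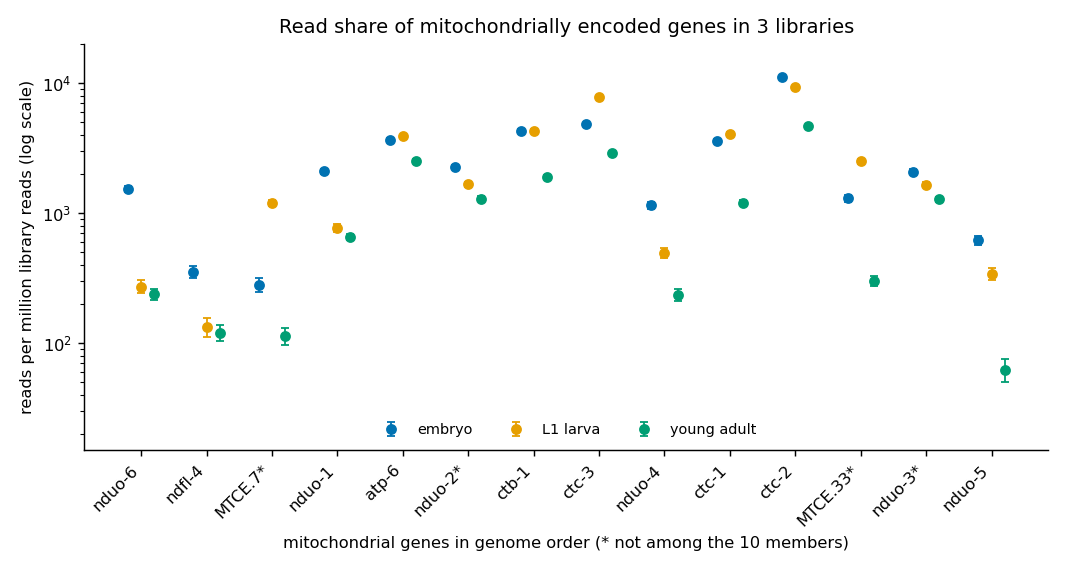
Read shares in RPM (reads scaled to 1000000 library reads, log scale) of the 14 mitochondrial protein and rRNA genes in genome order, with 95% counting intervals, in the embryo (blue), L1 (orange) and young adult (green) libraries; an asterisk marks genes outside the 10 members. For 10 of 10 members the young adult point is the lowest, from 61.4 for nduo-5 to 4635 for ctc-2; with TMM factors ctc-3 and atp-6 turn higher than in the embryo library.

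As a sum, the complex IV members held the most reads. The gene ctc-2, for cytochrome c oxidase subunit II, which receives electrons from cytochrome c, had 11149 reads per 1000000 library reads (RPM) in embryo RNA (10938 to 11363), 9279 in L1 RNA (9094 to 9467) and 4635 in young adult RNA (4530 to 4741). It ranked 1st, 4th and 28th among all genes of these libraries by reads. The gene ctc-3, for subunit III, had 4811, 7852 and 2877 RPM and was highest in the L1 library. The gene ctc-1, for the catalytic subunit I, had 3567, 4067 and 1198 RPM. With all rows counted, both ctc-1 and ctc-3 thus had their largest share in the L1 library. The share of ctc-2 was largest in the embryo library with library totals and in the L1 library with TMM factors. Counting only isoform rows with an annotated transcript name, the L1 over embryo ratio of ctc-1 turned below 1, at 0.878. That of ctc-3 was 1.72.

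The cytochrome b gene ctb-1, the mitochondrial subunit of complex III, had 4276 RPM in embryo RNA (4146 to 4410), 4298 in L1 RNA (4172 to 4427) and 1899 in young adult RNA (1833 to 1968). With library totals the embryo and L1 intervals overlapped, and the young adult interval lay apart. The gene atp-6, for the proton channel subunit of the ATP synthase membrane sector, had 3656, 3884 and 2526 RPM. With TMM factors the L1 over embryo ratios of ctb-1 and atp-6 were 1.84 and 1.95. Their young adult over embryo ratios were then 0.77 and 1.2.

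Each complex I member held fewer reads than any member of the other complexes in the same library. Their shares were largest in the embryo library, each with an interval there that lay above those of the other libraries, although with TMM factors nduo-5 was no higher there than in the L1 library. The gene nduo-1 had 2100.5 RPM in embryo RNA, 762 in L1 RNA and 654 in young adult RNA. For nduo-6 the shares were 1537 (1459 to 1618), 271 (240 to 305) and 236 (213 to 261) RPM, so the L1 and young adult intervals overlapped. For nduo-4 they were 1147, 494 and 233 RPM. The L1 share of nduo-4 lay between the others. The shortest member, ndfl-4, for the ND4L subunit, had 350.4, 132 and 119 RPM. The gene nduo-5, for a large antiporter-like subunit of the proton-pumping arm, had 618 (569 to 670), 340 (305 to 378) and 61.4 (49.9 to 74.8) RPM, the last from 99 reads.

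The order of the members by reads was led by ctc-2 and ctc-3 in each library, with ctb-1, atp-6 and ctc-1 next and the complex I members below them. In the embryo library, atp-6 and ctc-1 were the only neighbours in that order whose ratio had an interval that held 1, at 1.03 (0.98 to 1.08). In the young adult library this was true of nduo-6 and nduo-4, at 1.01 (0.88 to 1.17), and in the L1 library of no pair. Reads per kilobase (kb) of gene are given as another scale, and since a read stands for 1 RNA strand they do not count strands. Per kb, ctc-2 stayed first in each library, with 14999 reads per kb in embryo RNA, 13483 in L1 RNA and 10667 in young adult RNA. In the embryo library nduo-6 and nduo-1, at 3311 and 2266 reads per kb, stood above ctc-1, at 2097. On that scale nduo-5 was last in each library, at 368, 219 and 62.6 reads per kb. Per kb, ndfl-4 and nduo-6 could not be separated in the L1 library, at 570 and 632 reads per kb, or in the young adult library, at 817 and 872. By reads they were apart, with nduo-6 at 2.06 times ndfl-4 (1.67 to 2.55) in the L1 library and 1.98 times (1.66 to 2.37) in the young adult library. The order also depends on the isoform rows counted. With rows of an annotated transcript name alone, ctc-2 led the embryo library with 42.2% of the 10 genes' reads, followed by ctc-1 with 14.7% and ctc-3 with 10.7%, and nduo-1 with 6.82% and nduo-6 with 6.12% stood above atp-6 with 5.45%.

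The first comparison asks how the larval library differed from the embryo library. Complex I members took a smaller share of the L1 library, and members of the other complexes took shares within 1.63-fold of the embryo ones. A gene was called higher or lower where the interval bound nearest to 1 was at least 2-fold from 1, among genes with at least 20 reads over both libraries. By this rule 4 of 10 members were lower and 0 higher in the L1 library, and all 4 were complex I genes. Over all 8382 genes compared, 33.1% were called lower and 13.4% higher, so the count of lower members was near the background. The gene nduo-6, with 276 L1 reads and 1447 embryo reads, was 5.66-fold lower (4.98 to 6.46). The gene nduo-1 was 2.76-fold lower (2.54 to 3.0), ndfl-4 2.66-fold (2.17 to 3.28) and nduo-4 2.32-fold (2.09 to 2.59). The remaining complex I member, nduo-5, had a ratio of 0.55 (0.48 to 0.63) and was not called.

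Outside complex I, ctc-3 had the largest ratio of L1 over embryo share, 1.63 (1.57 to 1.69), with 7987 L1 reads and 4530 embryo reads. The ratio was 1.14 (1.09 to 1.19) for ctc-1, 1.06 (1.01 to 1.11) for atp-6, 1.01 (0.96 to 1.05) for ctb-1 and 0.83 (0.81 to 0.86) for ctc-2. The median log2 ratio of the 10 members was -0.56, against -1.14 over all genes. Scaling moved these values together. With TMM factors the all-gene median moved up by 0.87, and 1 member, ctc-3, was called higher and 1, nduo-6, lower, beside 18.8% and 13.5% of all genes. With DESeq2 size factors ctc-1 and ctc-3 were higher and nduo-6 lower, beside 19.1% and 12.9%. With TMM factors the ratio lay above 1 for ctc-2, at 1.52, and for nduo-5, at 1.01. With annotated rows alone 2 members were lower and 0 higher, beside 20.5% and 12.8% of genes. In those rows the ratios of ctc-1, atp-6 and ctb-1 turned below 1, at 0.878, 0.927 and 0.948.

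**Figure D2:**
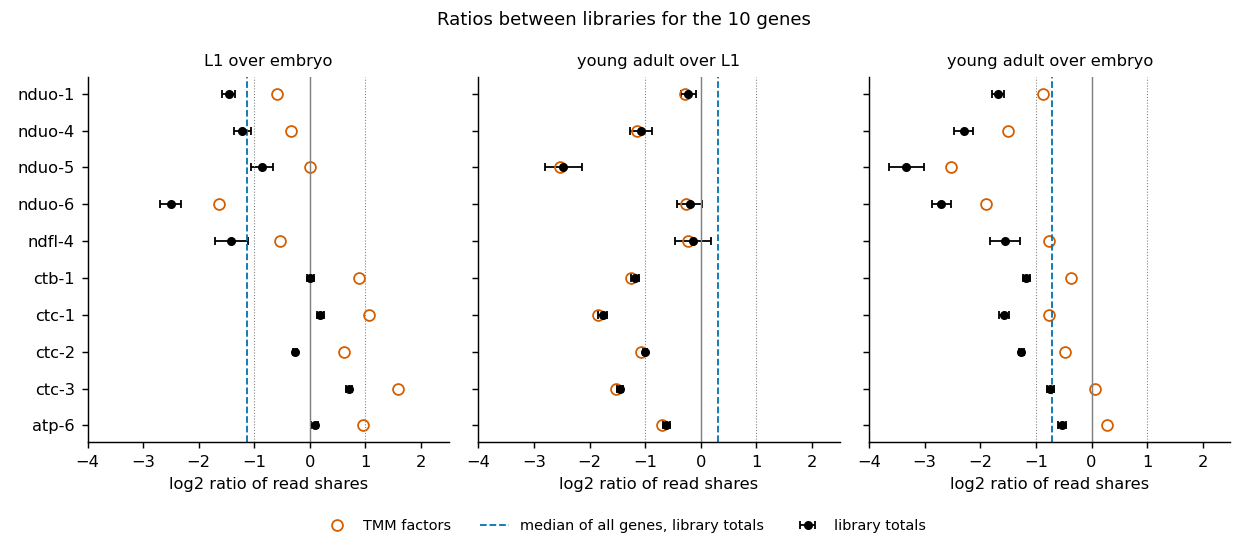
Log2 ratio of read shares for the 10 genes in 3 pairs of libraries, with library totals (black, 95% counting interval) and with TMM factors (open orange); the dashed line is the median of all genes with library totals and dotted lines mark 2-fold. The L1 over embryo panel separates the complex I members (log2 -2.50 to -0.86) from the other members (-0.26 to 0.71). The complex I genes nduo-2 and nduo-3, which are not drawn, lie between these ranges, at -0.44 and -0.33. TMM factors shift the L1 over embryo panel and the young adult over embryo panel to the right.

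The next comparison sets the young adult library against the L1 library. Complex IV and complex III genes and nduo-5 took a smaller share of the young adult library, while nduo-1, nduo-6 and ndfl-4 had ratios of 0.86 to 0.90. By the same rule 4 of 10 members were lower and 0 higher, beside 14.2% lower and 14.5% higher of 8043 genes compared. The called genes were nduo-5 at 5.54-fold lower (4.42 to 6.99), ctc-1 at 3.40-fold (3.22 to 3.59), ctc-3 at 2.73-fold (2.63 to 2.83) and, for complex III, ctb-1 at 2.26-fold (2.16 to 2.37). For ctc-1 this rests on 1930 young adult reads and 4137 L1 reads. Just outside the rule were nduo-4 at 2.11-fold lower (1.85 to 2.42) and ctc-2 at 2.0-fold lower (1.94 to 2.06). With TMM factors ctc-2 was called too, for 5 of 10 members lower and 0 higher, beside 14.9% and 13.1% of all genes. With DESeq2 size factors 5 were lower and 0 higher too, beside 15% and 13%. The ratio for atp-6 was 0.65 (0.62 to 0.68). Its interval lay below 1, as did that of nduo-1 at 0.86 (0.78 to 0.94), whereas those of nduo-6 at 0.87 (0.74 to 1.02) and ndfl-4 at 0.90 (0.72 to 1.14) held 1. With annotated rows alone 3 members were lower and 0 higher, beside 10.7% and 11.1% of genes, and ctb-1, at a ratio of 0.501, was not called. In those rows the ratios of atp-6 and nduo-6 turned above 1, at 1.29 and 1.16. The median log2 ratio of the members was -1.04, against 0.32 over all genes.

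The last comparison sets young adult against embryo RNA. With library totals 10 of 10 members had smaller shares in the young adult library, of which ctc-3 and atp-6 turn larger with TMM factors, and 8 were called lower and 0 higher. Over all 8636 genes compared, 29.3% were called lower and 13.2% higher. The largest difference was that of nduo-5, with 99 young adult reads and 582 embryo reads, 10.1-fold lower (8.12 to 12.6). Next came nduo-6 at 6.50-fold lower (5.80 to 7.29) and nduo-4 at 4.91-fold (4.37 to 5.54). These 3 were also called lower with TMM factors and 0 members higher, beside 17.3% and 19.6% of all genes. With DESeq2 size factors 3 were lower and 0 higher, beside 16.8% and 20.1%. In annotated rows 5 were lower and 0 higher, beside 18.5% called lower among all genes. With library totals nduo-1 was 3.21-fold lower, ctc-1 2.98-fold, ndfl-4 2.94-fold, ctc-2 2.41-fold and ctb-1 2.25-fold. The members not called were ctc-3, with a ratio of 0.60 (0.57 to 0.62), and atp-6, at 0.69 (0.66 to 0.72). With TMM factors those ratios turned to 1.04 and 1.2. The factors moved the all-gene median log2 ratio up by 0.80, and the members' median was -1.56 with library totals against -0.71 over all genes. The comparisons share libraries, so their ratios are not independent of each other.

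The make-up of the 10 genes' reads does not depend on how the libraries are scaled, but it does depend on the isoform rows counted. Complex I members held 17.3% of the 10 genes' reads in embryo RNA (16.9 to 17.7), 6.37% in L1 RNA (6.10 to 6.64) and 9.04% in young adult RNA (8.67 to 9.41). Complex IV members held 58.8%, 67.6% and 60.3%. These values leave out nduo-2 and nduo-3, which are also complex I genes. In the embryo and L1 libraries, the 7 mitochondrial complex I genes held 9496 of 35354 and 5405 of 35290 reads of the 12 protein genes. In the young adult library they held 6231 of 27392. The share of atp-6, the only complex V member, was 11%, 12.4% and 17.5% in the embryo, L1 and young adult libraries, and 5.45%, 5.78% and 13.0% with annotated rows alone. The share of ctb-1 was 12.9%, 13.7% and 13.2%, and 7.83%, 8.51% and 7.43% with annotated rows alone.

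**Figure D3:**
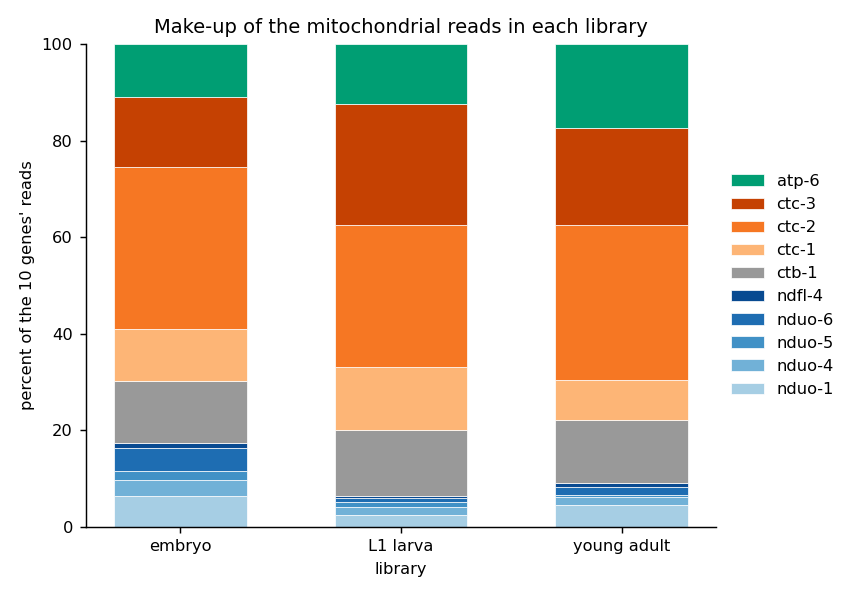
Percent of the 10 genes' reads held by each gene in the embryo, L1 and young adult libraries, with complex I in blue, complex III in grey, complex IV in orange and complex V in green; bars are stacked to 100%. The blue part is 17.3%, 6.37% and 9.04% of the embryo, L1 and young adult bars. It leaves out the complex I genes nduo-2 and nduo-3, which are not among the 10 genes. The green part is largest in the young adult bar at 17.5%.

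Within the reads of the 10 genes, the odds ratio of complex I members was 0.32 for L1 over embryo (0.31 to 0.34). For young adult over L1 it was 1.46 (1.37 to 1.56). The odds ratio of nduo-6 was 0.18 for L1 over embryo (0.16 to 0.20) and 1.91 for young adult over L1 (1.63 to 2.24). The gene nduo-5 did not share that second direction, with an odds ratio of 0.39 for young adult over L1 (0.31 to 0.49), and nduo-4 had 1.03 (0.90 to 1.18). For ctc-3 the odds ratio was 1.97 for L1 over embryo (1.89 to 2.05) and 0.75 for young adult over L1 (0.72 to 0.78). For ctc-1 it was 1.24 and 0.61, and for atp-6 1.14 and 1.5. These odds count all rows and leave out nduo-2 and nduo-3. With annotated rows alone, ctc-1 held 14.7% and 14.8% of the 10 genes' reads in embryo and L1 RNA. In L1 and young adult RNA, those rows gave nduo-4 1.90% and 1.32%, nduo-6 1.22% and 2.45%, and nduo-5 1.28% and 0.376%. Complex I members therefore did not move as a block between the L1 and young adult libraries.

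Subunits that enter 1 complex in fixed proportion had unequal read ratios. The ratio of ctc-2 to ctc-1 reads was 3.13 in embryo RNA (3.01 to 3.25), 2.28 in L1 RNA (2.199 to 2.37) and 3.87 in young adult RNA (3.68 to 4.07). Per kb these ratios were 7.15, 5.22 and 8.85. With annotated rows alone the read ratios were 2.87, 2.87 and 5.62, so the difference between the embryo and L1 libraries was not seen there. The ratio of ctc-3 to ctc-1 reads was 1.35, 1.93 and 2.40, or 2.799, 4.01 and 4.98 per kb, with intervals apart at each step. With annotated rows alone it was 0.727, 1.42 and 1.59, below 1 in the embryo library. No intervals are given for these rows, so whether the L1 and young adult values were apart there is not shown. Within complex I, the ratio of nduo-1 to nduo-5 reads was 3.40 in embryo RNA, 2.24 in L1 RNA and 10.6 in young adult RNA (8.66 to 13.2), or 6.16, 4.06 and 19.3 per kb. It was 3.10, 2.28 and 11.4 with annotated rows alone, within the counting intervals of the values over all rows. The genes ctc-3 and nduo-6 belong to different complexes and had the largest and smallest L1 over embryo ratios of the members. This pair was chosen after values were seen, so a wide range followed from the choice. The ratio of ctc-3 to nduo-6 reads ranged from 3.13 in the embryo library to 28.9 in the L1 library (25.7 to 32.7) and was 12.2 in the young adult library. Per kb it was 1.77, 16.4 and 6.89, and with annotated rows alone 1.75, 17.3 and 5.62.

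Genes that lie side by side also differed. The genes nduo-1 and atp-6 overlap by 2 bases, and the ratio of atp-6 to nduo-1 reads was 1.74 in embryo RNA (1.65 to 1.84), 5.10 in L1 RNA (4.72 to 5.51) and 3.86 in young adult RNA (3.61 to 4.13), or 2.52, 7.39 and 5.60 per kb. Counted in annotated rows it was 0.798, 1.98 and 3.04, so the embryo value fell below 1 and the young adult value, not the L1 value, was the highest. The ratio of nduo-6 to ndfl-4 reads, which overlap by 1 base, was 4.38 in embryo RNA (3.89 to 4.96), 2.06 in L1 RNA (1.67 to 2.55) and 1.98 in young adult RNA (1.66 to 2.37). Per kb that ratio was 2.36 in the embryo library, and its intervals held 1 in the L1 library, at 1.11, and in the young adult library, at 1.07. The gene nduo-3 overlaps nduo-5 by 1 base. Its young adult over L1 ratio was 0.77 (0.72 to 0.82), whereas that of nduo-5 was 0.18 (0.14 to 0.23). No source used here says how strands that cover both genes of such a pair were assigned.

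The 2 mitochondrial complex I genes outside the set had larger L1 over embryo ratios than the 5 within it. The gene nduo-2 had 2258, 1662 and 1285 RPM in the embryo, L1 and young adult libraries. For nduo-3 the shares were 2074, 1654 and 1277 RPM. Their L1 over embryo ratios were 0.74 (0.69 to 0.78) and 0.80 (0.75 to 0.85), above those of nduo-1, nduo-4, nduo-5, nduo-6 and ndfl-4, whose intervals ended at 0.63 or below. With TMM factors the ratios of nduo-2 and nduo-3 turned to 1.35 and 1.46. With these genes added, the 12 protein genes held 3.75%, 3.47% and 1.70% of the libraries.

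With all rows and library totals, the mitochondrial rRNA genes were highest in the L1 library and lowest in the young adult library. The order of libraries was that of ctc-1 and ctc-3, with larger ratios of L1 over each other library. The small-subunit rRNA gene MTCE.7 had 278, 1194 and 113 RPM in the embryo, L1 and young adult libraries, and the large-subunit gene MTCE.33 had 1294.5, 2501 and 302 RPM. In the L1 library MTCE.7 was 4.29-fold higher than in the embryo library (3.75 to 4.92). In the young adult library it was 10.6-fold lower than in the L1 library (9.03 to 12.4) and MTCE.33 was 8.29-fold lower (7.52 to 9.16). With TMM factors the L1 over embryo ratios of MTCE.7 and MTCE.33 were 7.86 and 3.54. These values count rRNA strands that passed poly-A selection, not all rRNA. Of 22 annotated mitochondrial tRNA genes, 1 had a read, in the L1 library.

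The young adult over L1 ratio of the members ran with gene length. The members longer than 1000 bases are ctb-1 (1118 bases), nduo-4 (1303), nduo-5 (1582) and ctc-1 (1602), and their log2 ratios were -1.18, -1.08, -2.46 and -1.76. The shortest members, ndfl-4 and nduo-6 (437 bases), had log2 ratios of -0.15 and -0.20. Among members of middle length the order did not hold. The log2 ratio of ctc-3 (772 bases), at -1.45, lay below those of the longer ctb-1 and nduo-4. That of nduo-1 (873 bases), at -0.22, lay above those of the shorter ctc-2 (700 bases), at -1.0, and atp-6 (602 bases), at -0.62. Spearman's rho between length and log2 ratio was -0.84 over the 10 members and -0.75 over the 12 protein genes, for young adult over L1. For L1 over embryo it was 0.35 over the members and for young adult over embryo -0.32. Over 8022 nuclear genes with a length, rho was -0.03 for young adult over L1, -0.20 for L1 over embryo and -0.27 for young adult over embryo. These are descriptions across genes of the same 2 libraries, which share depth, and the part of length in the members' ratios was not tested.

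**Figure D4:**
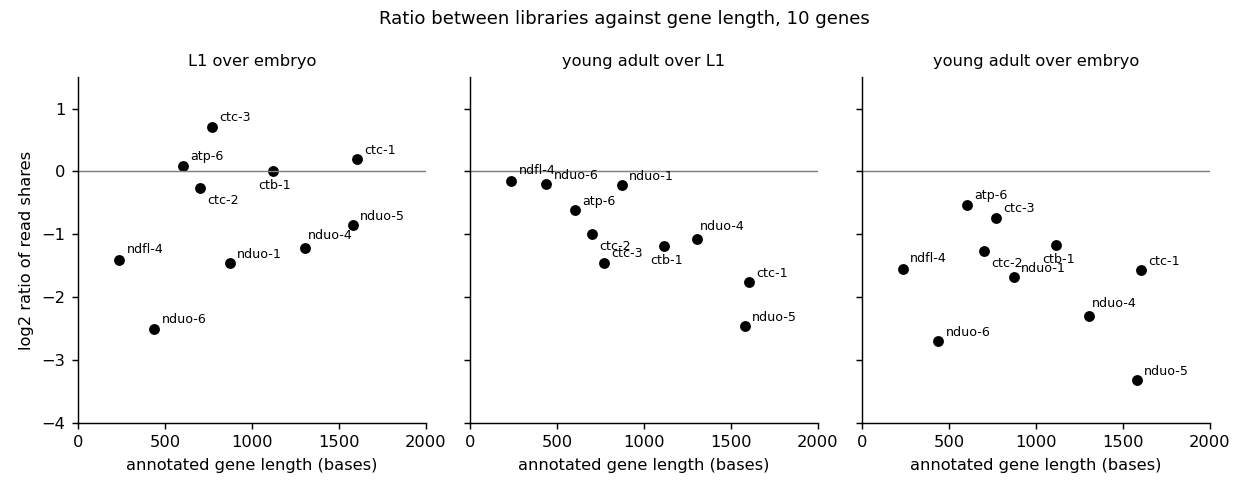
Log2 ratio of read shares against annotated gene length in bases for the 10 genes, 1 panel per pair of libraries; each point is a gene. In the young adult over L1 panel, ndfl-4 and nduo-6 sit near 0 and the longest genes, ctc-1 and nduo-5, at -1.76 and -2.46, whereas no such order is visible in the L1 over embryo panel. In the young adult over L1 panel ctc-3, at -1.45, and nduo-1, at -0.22, lie out of that order.

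The lists of nuclear genes for the same complexes hold subunit genes with rows in the table, 30 for complex I, 9 for complex III, 7 for complex IV and 15 for complex V. For young adult over embryo, 0 of 30 nuclear complex I genes, 0 of 9 complex III genes and 0 of 7 complex IV genes were called, and 1 of 15 complex V genes was higher, beside 29.3% lower and 13.2% higher of all genes compared. Their median log2 ratios were -0.09, 0.36, 0.01 and 0.31. With TMM factors 2, 2, 1 and 7 of these genes were called higher and 0 lower, beside 19.6% and 17.3% of all genes, and the medians were 0.71, 1.16, 0.81 and 1.11. Among the genes with most reads, cox-5A, a complex IV subunit, had a young adult over embryo ratio of 0.89 (0.83 to 0.95) and cox-4 0.91 (0.84 to 0.98). The ATP synthase gene atp-2, for the catalytic beta subunit, had 1.07 (0.996 to 1.15), the Rieske iron-sulfur protein gene isp-1 of complex III 0.77 (0.69 to 0.85) and the complex I gene nuo-3 1.12 (0.98 to 1.28). The most abundant nuclear complex V gene, Y82E9BR.3, had 1.37 (1.31 to 1.43), and C16A3.5 and ucr-1, listed with complexes I and III, had 1.17 and 1.51. With TMM factors each of these ratios lay above 1.

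For L1 over embryo, 0 of the 30 complex I, 0 of the 7 complex IV, 1 of the 9 complex III and 1 of the 15 complex V genes were lower and 0 of these genes were higher, beside 33.1% and 13.4% of all genes. With TMM factors 1, 1, 1 and 6 of them were higher and 0 lower, beside 18.8% and 13.5%. For young adult over L1, 1 complex I, 1 complex III and 3 complex V genes were higher, 0 complex IV genes were, and 0 genes of these 4 lists were lower, beside 14.5% higher and 14.2% lower of all genes. With TMM factors 0, 1, 2 and 0 of them were higher, beside 13.1%. Complex II, which has no mitochondrially encoded subunit, had 0 of 5 genes called for L1 over embryo and 1 higher for young adult over L1. For young adult over embryo 0 were called, beside 29.3% lower and 13.2% higher of all genes. With TMM factors 1 was higher there, beside 19.6%. The complex II genes with most reads were mev-1, with 217, 229 and 342 reads in the embryo, L1 and young adult libraries, and sdhb-1, with 168, 173 and 335. Their young adult over L1 ratios of read shares were 0.94 (0.80 to 1.12) and 1.22 (1.01 to 1.48). For young adult over embryo these ratios were 0.92 (0.77 to 1.10) and 1.17 (0.97 to 1.41). The cytochrome c gene cyc-2.1 had 1070, 1605 and 1806 reads. Its paralog cyc-2.2 had 0 reads in embryo RNA, 19 in L1 RNA and 152 in young adult RNA, 5.05-fold higher there than in the L1 library (3.12 to 8.62).

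Set within each complex, the members' part of the mitochondrial and nuclear subunit reads was smallest in the young adult library. For complex IV it was 77.5% in embryo RNA (77.0 to 78.0), 78.1% in L1 RNA (77.7 to 78.6) and 60.3% in young adult RNA (59.7 to 61.0). For complex III it was 65.8%, 67.9% and 43.2%, and for complex V 23.6%, 22.5% and 14.1%. In these 3 complexes the embryo and L1 values were close to each other. For complex I the 5 members held 44.3% in embryo RNA (43.4 to 45.2), 27.5% in L1 RNA (26.5 to 28.5) and 15.7% in young adult RNA (15.1 to 16.3). These values leave out nduo-2 and nduo-3. With them, the 7 mitochondrial complex I genes held 58.2% of the complex's reads (57.5 to 59.0), 50.2% (49.2 to 51.1) and 35.5% (34.8 to 36.2), so the embryo and L1 values lay closer together. The levels compare read counts of unlike numbers of genes and lengths, so the comparison of interest is that between libraries.

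**Figure D5:**
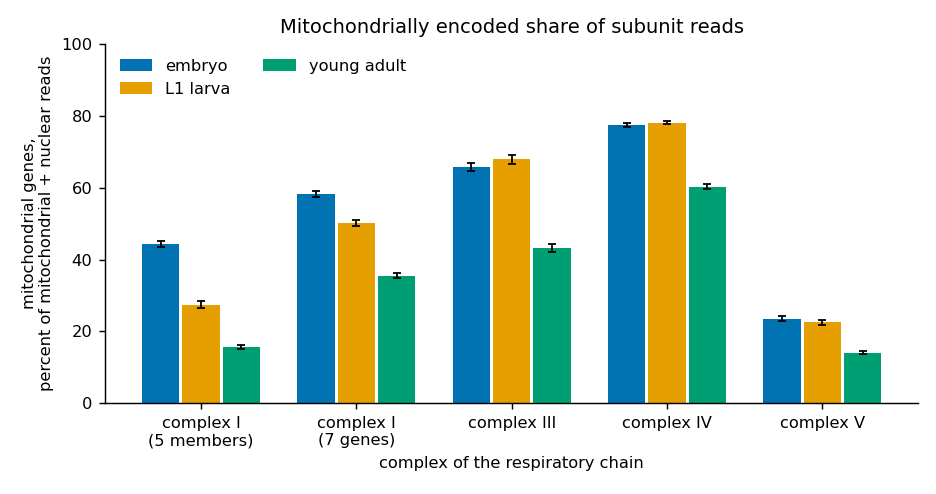
Reads of mitochondrially encoded genes as a percent of mitochondrial plus nuclear subunit reads of complexes I, III, IV and V, with complex I drawn for the 5 members and for all 7 mitochondrial genes (nduo-2 and nduo-3 added), in the embryo (blue), L1 (orange) and young adult (green) libraries, with 95% counting intervals. In complexes III, IV and V the embryo and L1 bars are close and the young adult bar is lower, and in complex I the bars stand at 44.3%, 27.5% and 15.7% for the 5 members and at 58.2%, 50.2% and 35.5% for the 7 genes.

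Of the genes that keep or express mitochondrial DNA, 5 had rows, of which 4 had enough reads for young adult over L1. For L1 over embryo, 0 of 5 were called, beside 33.1% lower and 13.4% higher of all genes. For young adult over L1, 1 of 4 was higher and 0 lower, beside 14.5% and 14.2%. For young adult over embryo, 1 of 5 was lower and 0 higher, beside 29.3% and 13.2%. There, with TMM factors, 1 was higher and 0 lower, beside 19.6% and 17.3%. The single-stranded DNA-binding protein gene mtss-1 had 96, 56 and 258 reads in the embryo, L1 and young adult libraries, 2.91-fold higher in the young adult than in the L1 library (2.17 to 3.96). The packaging factor gene hmg-5, related to mammalian TFAM, had 79, 56 and 172 reads and was called in no pair. Young adult over embryo ratios of read shares were 1.57 (1.24 to 2.01) for mtss-1 and 1.27 (0.97 to 1.68) for hmg-5.

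The course of the members' joint share over the 3 libraries was compared with that of 494 genes outside the set with at least 1000 reads in all. By the distance between their log2 ratios over the embryo library, the nearest genes were ztf-7, pccb-1, oaz-1, gln-3 and snb-1. The zinc finger gene ztf-7 had 465, 410 and 227 RPM in the embryo, L1 and young adult libraries, at a distance of 0.196, and snb-1, a synaptic vesicle protein gene, 465, 332 and 244 at 0.485. The other named genes lay between these distances. This likeness rests on 3 libraries.

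The members' reads were spread over 344 isoform rows, of which 10 carry the annotated transcript name and 334 a read identifier. The annotated row of ctc-2 held 39.2% of the gene's reads in embryo RNA (38.2 to 40.1), 37.4% in L1 RNA (36.4 to 38.4) and 57.2% in young adult RNA (56 to 58.3). For atp-6 it held 15.4%, 12.2% and 28.0%, and for nduo-6 41.2%, 36.5% and 56.4%. These 3 genes had their largest annotated part in the young adult library. For ctc-1 the annotated row held 42.7% in embryo RNA, 29.7% in L1 RNA (28.3 to 31.2) and 39.3% in young adult RNA, and the L1 value was the lowest. For nduo-1, at 33.6%, 31.2% and 35.6%, and nduo-5, at 36.7%, 30.6% and 33.5%, the 3 intervals overlapped.

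Some rows known by a read identifier were as large as the annotated ones. For atp-6 the leading such row held 27.9%, 24.0% and 35.7% of the gene's reads in the embryo, L1 and young adult libraries, and the next 26.6%, 29.7% and 13.5%. The identifier of the leading row also stands under nduo-2, the next protein gene, with 3 tRNA genes between. For ndfl-4 the annotated row held 1.05, 0.17 and 0.52 estimated reads, and a row with a read identifier held 96.1%, 94.5% and 96.7% of the gene's reads. For ctc-3 the annotated row and another had equal values in each library, 1042, 1749 and 1208 estimated reads. The rows give no ends or exon structure, and no source used here says how reads were divided between them.

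Among the mitochondrial genes, 24 read identifiers stood under more than 1 gene, in 15 pairs of genes, and 13 of them joined members to members. In genome order 16 of the 24 joined neighbouring genes, here genes with no protein or rRNA gene between them, while tRNA genes may lie between. Of these, 3 joined ctb-1 and ctc-3, 3 joined nduo-4 and ctc-1, 1 joined ctc-3 and nduo-4, 1 joined nduo-6 and ndfl-4, and 5 joined MTCE.33 and nduo-3. The other 8 joined genes that are not neighbours, such as ctb-1 and ctc-1. Rows with a shared identifier held 27.9%, 24.0% and 35.7% of atp-6 reads in the embryo, L1 and young adult libraries, the largest part of any member in the embryo and young adult libraries. They held 24.3%, 30.4% and 32.4% of nduo-4 reads and 12.2%, 14.1% and 12.9% of ctc-1 reads. In ctc-2 they held 0.40%, 0.35% and 0.53%, and in nduo-5 there were 0 such rows. Whether the strands behind these rows span both genes was not tested.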

How the data were processed

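Direct RNA libraries were sequenced on R9.4.1 flow cells under MinKNOW 2.1 with Albacore 2.0.1, per the labels' protocols, and minimap2 2.14 is named in the submitters' processing notes. The deposited series table holds the authors' estimated counts per isoform row and per gene, not scaled for depth. A value of 1e-08 was read as 0. The deposited per-sample coverage signal, headed Cpm, equals the estimated count of the gene times 1.326721 in each library (within 0.1%), and served only as an alternative. No source used here gives the read assignment, genome build or filters.

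Estimated counts were summed per gene and rounded. Ratios of read shares carry exact conditional binomial intervals, and log2 ratios have 0.5 reads added. Between libraries, odds within the 10 genes carry exact conditional intervals. The ratio step was tested on simulated data. No p-value is given because each stage has 1 library, and a p-value for stages would need replicates. The counts set the precision: 0 reads allow (3 counts) up to 3.19, 2.95 and 1.86 RPM in the embryo, L1 and young adult libraries.

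Members, lists and rules were chosen with earlier results of these data known. Named genes were the members, nduo-2 and nduo-3, the 2 genes with most reads of each nuclear list, and the 5 genes most like the members' joint course. The member pairs whose read ratios are given, also with annotated rows alone, the addition of nduo-2 and nduo-3 to complex I, the gene-length comparison, the rRNA genes and the shared identifiers were chosen after values were seen. Of the listed nuclear genes, nduf-9, nduf-11, ucr-2.1 and twnk-1 matched no row by symbol. Python 3.11.15 was used with scipy 1.17.1, matplotlib 3.10.9, pandas 2.3.3 and numpy 2.4.6. Scaling factors came from edgeR 4.0.16 and DESeq2 1.42.0 under R 4.3.3.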

Additional observations from a re-analysis of the deposited data

How the results depend on the processing

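The library scaling moved ratios that involve the embryo library. The joint L1 over embryo log2 ratio of the 10 genes was -0.08 with library totals, but 0.79 with TMM factors and 0.84 with DESeq2 size factors. With these 2 scalings 1 and 2 members were called higher and 1 and 1 lower, against 0 and 4 with library totals. The log2 ratio of nduo-5 turned to 0.01 and 0.06 and that of ctc-2 to 0.61 and 0.66. For young adult over embryo, the joint log2 ratio of -1.20 became -0.40 and -0.36, no longer called, and 3 and 3 members were called lower in place of 8. There ctc-3 turned to 0.06 and 0.10 and atp-6 to 0.27 and 0.31. Over all genes, those called lower in L1 over embryo numbered 1132 and 1078 in place of 2771, and in young adult over embryo 1491 and 1447 in place of 2533, with 1737 called higher under DESeq2 size factors in place of 1140.

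With annotated rows alone, the joint log2 ratio was -0.80 for young adult over L1 and -1.0 for young adult over embryo, neither called. Members called lower were 2 for L1 over embryo, 3 for young adult over L1 and 5 for young adult over embryo, in place of 4, 4 and 8. In L1 over embryo ctb-1 turned to -0.08, ctc-1 to -0.19 and atp-6 to -0.11. In young adult over L1 nduo-6 turned to 0.21, ndfl-4 to 0.70 and atp-6 to 0.37, and in young adult over embryo atp-6 turned to 0.26. These rows keep under 2 reads of ndfl-4 per library. They also moved 27 of 30 shares within the 10 genes beyond their counting intervals. In the embryo library, in alternatives chosen after seeing the data, the ratio of ctc-3 to ctc-1 reads turned to 0.727 and that of atp-6 to nduo-1 reads to 0.798. Pairs with ndfl-4 were not run there, as its annotated row held at most 1.05 reads. Without rows of shared identifiers, also chosen after seeing the data, ctb-1 turned to -0.01 in L1 over embryo and no call changed. Per kb, the ratio of nduo-6 to nduo-4 reads in the L1 library was 1.64 in place of 0.55. The cause of these changes was not tested. Leaving mitochondrial reads out of the library totals, unrounded values, the per-sample column and no read minimum left the joint ratios and the counts of calls on the same side. No paired analysis was possible because each stage has 1 library.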
